A study of Zea mays with 12 samples.

Results

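The aprl genes of maize (Zea mays), named for their likeness to adenosine 5'-phosphosulfate (APS) reductase, were described in seed embryos. Members were the symbols of a given list: aprl1, aprl3, aprl4, aprl5, aprl6, aprl7, aprl8 and aprl9, which are 8 of the 99 genes in the table analysed here. All 8 passed the filter on low values, an FPKM (fragments relative to gene length and to library size) of at least 1 in at least 3 libraries, as did 76 genes in all. The embryos came from seeds of the inbred lines Mo17, labelled sensitive to low temperature, and B73, labelled resistant, which had imbibed in germination paper for 2 h. The 4 groups were Mo17 at 10 °C, Mo17 at 25 °C, B73 at 10 °C and B73 at 25 °C, with 3 biological replicates each, and 25 °C was the normal condition.

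APS reductase reduces activated sulfate to sulfite in the plastid, a control point of the route from sulfate to cysteine, and its protein ends in a domain with the thioredoxin fold. In maize leaves this step is placed mainly in the bundle sheath. Protein disulfide isomerases use the same fold in the endoplasmic reticulum (ER), where they make, break and rearrange disulfide bonds while secreted and stored proteins fold. Genes with an APR-like name can therefore belong to sulfur metabolism or to ER protein folding.

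The annotation in the table divided the family in this way. aprl1 was annotated to sulfate assimilation and cysteine biosynthesis, in the chloroplast, with the enzyme class of APS reductase, and carried no disulfide isomerase term. The other 7 members all carried the same 4 terms, namely protein disulfide isomerase activity, endoplasmic reticulum, protein folding and response to ER stress, and none of the sulfate terms. Among these, aprl4 alone had a pathway entry, protein processing in the endoplasmic reticulum, with the enzyme class of disulfide isomerase. The individual roles of the 7 genes in maize are not described further here. The closest relative of aprl1 by annotation was aprl2, which has the same pathway and enzyme class and is not on the list of members.

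Positions are in the coordinates of B73 RefGen_v4, while chromosome numbers come from RefSeq's gene table of the NAM assembly. aprl1 lies on chromosome 7 at 157695136 to 157698277 (minus strand). 2 members lie on chromosome 1, aprl5 at 221288901 to 221307523 and aprl8 at 295633186 to 295636314, both on the plus strand. 2 others lie on chromosome 5, aprl9 at 3626345 to 3629121 and aprl4 at 214157431 to 214160113, both on the minus strand. aprl7 lies on chromosome 3 at 133491011 to 133493737 (plus strand), aprl3 on chromosome 4 at 183479812 to 183482064 (plus strand) and aprl6 on chromosome 10 at 25081671 to 25086625 (minus strand). The gene spans run from 2253 bp for aprl3 to 4955 bp for aprl6, with aprl5 apart at 18623 bp, and each span covers the whole gene, exons and introns together.

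The libraries differed little in depth, at 0.817 to 1.08 relative to their mean, and absolute depth is unknown. 1 library stood apart: B73 10 °C replicate 1 correlated at 0.969 and 0.974 with its replicates over the 76 genes, against at least 0.981 for every other pair of replicates (Pearson r of log2(FPKM + 1), across genes). It had 9 genes more than 2-fold away from the mean of its replicates, while the 9 libraries of the other groups had 0 to 3. Comparisons of aprl1, aprl6 and aprl7 that involve this library, in which these members lay furthest from their replicates, are given with and without it. Levels were not compared between genes, because the count that an FPKM of 1 stood for was 345 for aprl9 and 77.0 for aprl8 although their spans are alike.

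The question of the line comparison was how Mo17 embryos differ from B73 embryos at each temperature. The genome build was that of B73 for both lines. Differences in expression therefore cannot be told apart from differences in how Mo17 reads match that build. aprl5 and aprl6 were higher in Mo17 at both temperatures, while aprl4 and aprl8 were lower in Mo17 at both, and aprl7 was lower in Mo17 at 10 °C. At 10 °C 5 of the 8 members passed the edgeR quasi-likelihood test, where 64.5% of all tested genes did. At 25 °C 4 of the 8 passed, where 61.8% of all tested genes did. The threshold was an adjusted p of 0.05, by the Benjamini-Hochberg method across all 76 genes. The lines did not overlap for 4 members at 10 °C and 6 at 25 °C, where 60.5% and 69.7% of all tested genes did not. The members' share was thus near that of the whole table. By direction, 2 members were higher and 3 lower in Mo17 at 10 °C, against 36.8% and 27.6% of all tested genes, and 2 were higher and 2 lower at 25 °C, against 36.8% and 25%. The median log2 difference of the members was -0.20 at 10 °C and -0.0049 at 25 °C, beside 0.06 and 0.17 over all tested genes.

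**Figure D1:**
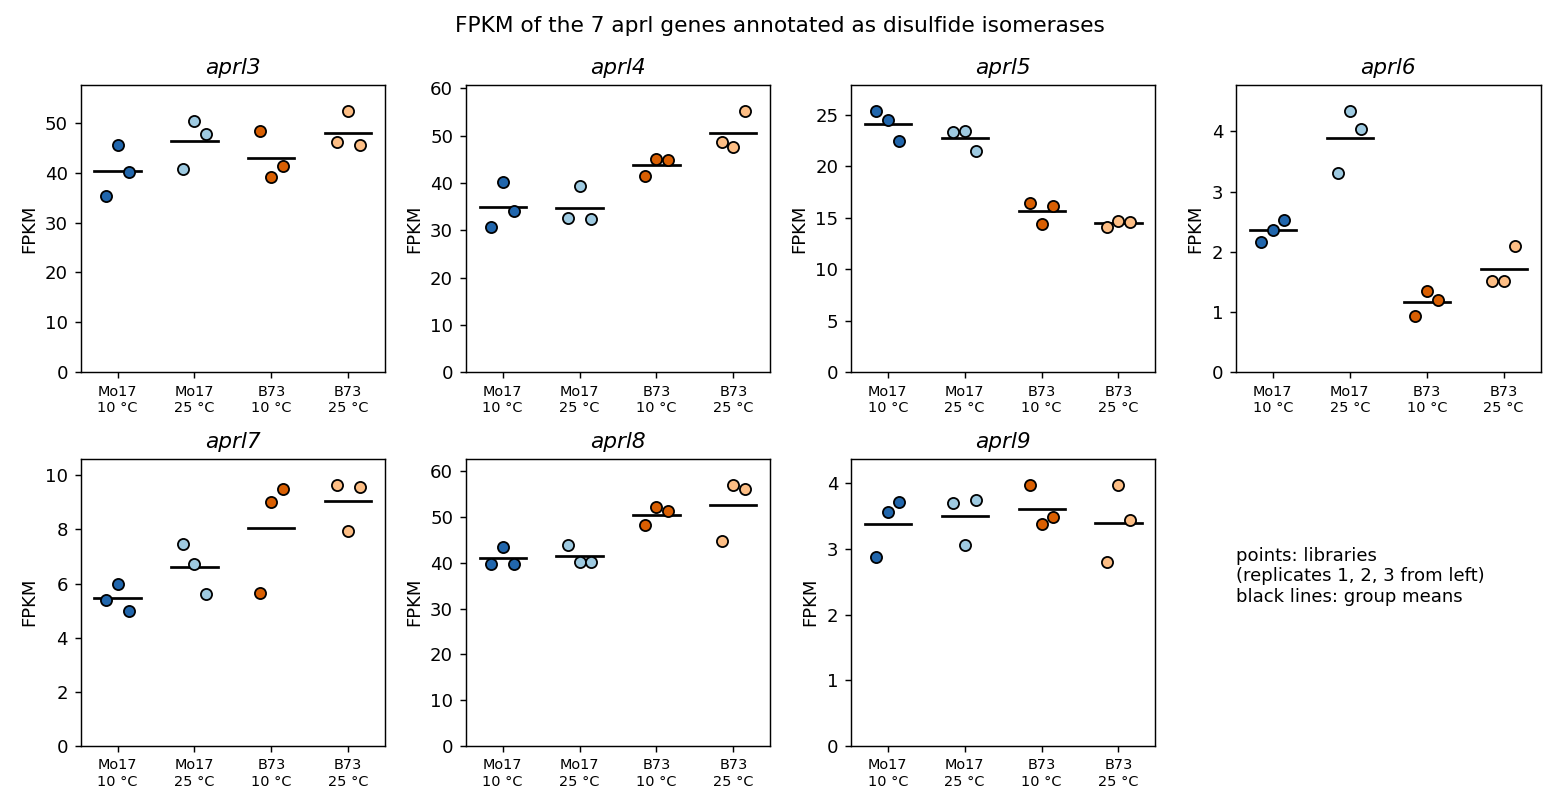
FPKM (vertical axes, from 0) of the 7 members annotated as disulfide isomerases in the 12 libraries, by line and temperature; points are libraries and black lines group means. aprl5 (22.47 to 25.38 in Mo17 at 10 °C, 14.35 to 16.48 in B73 at 10 °C) and aprl6 stand higher in Mo17, aprl4 and aprl8 stand higher in B73, as does aprl7 apart from B73 10 °C replicate 1, and aprl3 and aprl9 show no separation.

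aprl5 had the smallest adjusted p of the family between the lines, at both temperatures. Its FPKM was 25.38, 24.55 and 22.47 in Mo17 at 10 °C, against 16.48, 14.35 and 16.19 in B73 at 10 °C. At 25 °C it was 23.30, 23.42 and 21.52 in Mo17, against 14.11, 14.68 and 14.57 in B73. Every Mo17 library lay above every B73 library, whatever the temperature. The log2 difference was 0.62 ± 0.09 (SE) at 10 °C, a fold of 1.54 (edgeR adjusted p = 9.8e-05), and 0.65 ± 0.09 at 25 °C, a fold of 1.57 (adjusted p = 6.7e-05). Both calls were kept in each of the 12 fits without a library and under all 8 other alternatives.

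aprl6 had the largest difference between the lines among the disulfide isomerase members, at levels low enough that 1 library fell below an FPKM of 1. It stood at 2.17, 2.37 and 2.53 FPKM in Mo17 at 10 °C, against 0.93, 1.35 and 1.20 in B73 at 10 °C. At 25 °C the values were 3.31, 4.34 and 4.04 FPKM in Mo17, against 1.51, 1.52 and 2.09 in B73. The groups did not overlap at either temperature. The log2 difference was 1.02 ± 0.21 (SE) at 10 °C, a fold of 2.03 (edgeR adjusted p = 0.0015), and 1.19 ± 0.21 at 25 °C, a fold of 2.27 (adjusted p = 0.00051). Without B73 10 °C replicate 1 the difference at 10 °C was 0.89 ± 0.22 (edgeR adjusted p = 0.0040). Quantile normalization of log2(FPKM + 1) gave 0.02 at 10 °C and 0.22 at 25 °C, and both calls were lost.

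aprl4 and aprl8 were lower in Mo17. aprl4 had 30.72, 40.17 and 33.97 FPKM in Mo17 at 10 °C, against 41.58, 45.15 and 44.83 in B73 at 10 °C, and 32.60, 39.28 and 32.48 in Mo17 at 25 °C, against 48.59, 47.70 and 55.22 in B73 at 25 °C. At neither temperature did its groups overlap. Its log2 difference was -0.33 ± 0.12 (SE) at 10 °C (edgeR adjusted p = 0.029) and -0.54 ± 0.12 at 25 °C (adjusted p = 0.0016). aprl8 had 39.83, 43.46 and 39.71 FPKM in Mo17 at 10 °C, against 48.37, 52.11 and 51.23 in B73 at 10 °C, and 43.98, 40.23 and 40.08 in Mo17 at 25 °C, against 44.77, 57.07 and 56.05 in B73 at 25 °C. Here too the groups stood apart, but at 25 °C only narrowly, since B73 replicate 1 lay next to the highest Mo17 library. Its log2 difference was -0.30 ± 0.10 (SE) at 10 °C (edgeR adjusted p = 0.025) and -0.35 ± 0.10 at 25 °C (adjusted p = 0.012), or 1.23-fold and 1.27-fold lower in Mo17. At 10 °C the calls of both genes were lost without B73 10 °C replicate 2 (edgeR adjusted p = 0.073 for aprl4 and 0.068 for aprl8), B73 10 °C replicate 3 (0.072 and 0.065), Mo17 10 °C replicate 1 (0.12 and 0.080) or Mo17 10 °C replicate 3 (0.079 and 0.076), and with quantile normalization (log2 difference -0.06 and -0.13). At 25 °C the call of aprl8 was lost without B73 25 °C replicate 2 (edgeR adjusted p = 0.051) or replicate 3 (0.053) and with quantile normalization (-0.15).

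aprl7 was less settled. It had 5.40, 5.98 and 5.00 FPKM in Mo17 at 10 °C, against 5.64, 9.01 and 9.49 in B73 at 10 °C. At 25 °C the values were 7.47, 6.73 and 5.62 FPKM in Mo17, against 9.65, 7.95 and 9.58 in B73. The groups overlapped at 10 °C because of B73 replicate 1, and did not overlap at 25 °C. The log2 difference was -0.56 ± 0.21 (SE) at 10 °C (edgeR adjusted p = 0.039) and -0.46 ± 0.21 at 25 °C, which missed the threshold (adjusted p = 0.085). Without B73 10 °C replicate 1 both differences passed, at -0.76 ± 0.18 at 10 °C and -0.46 ± 0.16 at 25 °C (edgeR adjusted p = 0.0028 and 0.024). The call at 10 °C was lost without Mo17 10 °C replicate 1, 2 or 3 (edgeR adjusted p = 0.097, 0.057 and 0.12), without replicate 2 or 3 of B73 at 10 °C (0.12 and 0.15) or without B73 25 °C replicate 3 (0.051), with quantile normalization (0.087) and with replicate number as a block (0.067). TMM factors, DESeq2 and median-ratio factors called aprl7 lower at 25 °C too (adjusted p = 0.011, 0.033 and 0.035).

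aprl3 and aprl9 passed in no comparison of the edgeR test on all libraries. aprl3 averaged 40.4 ± 5.1 FPKM in Mo17 at 10 °C and 46.3 ± 5.0 in Mo17 at 25 °C, beside 42.9 ± 4.8 in B73 at 10 °C and 48.0 ± 3.8 in B73 at 25 °C (mean ± SD, n = 3 each). aprl9 averaged 3.39 ± 0.44 and 3.50 ± 0.38 FPKM in Mo17 at 10 °C and 25 °C, beside 3.62 ± 0.32 and 3.40 ± 0.59 in B73 at 10 °C and 25 °C. The 95% interval of the log2 difference between the lines at 10 °C ran from -0.36 to 0.18 for aprl3 and from -0.45 to 0.27 for aprl9. At 25 °C it ran from -0.32 to 0.22 for aprl3 and from -0.32 to 0.40 for aprl9. The sign of these small differences depended on the scaling for aprl3 at both temperatures and for aprl9 at 25 °C. That of aprl9 at 10 °C was negative under every scaling. edgeR with TMM factors called both genes lower in Mo17 at 10 °C (log2 difference -0.41 and -0.42, adjusted p = 0.030 and 0.044), and quantile normalization called aprl9 lower at 10 °C (-0.53) and at 25 °C (-0.63). Over all 12 libraries the highest value was 1.42 times the lowest for aprl9, 1.44 times for aprl8 and 1.48 times for aprl3, and these genes ranked the fifth, the sixth and the eighth flattest of the 76.

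The scaling mattered for the line comparison as a whole. TMM factors moved the median log2 difference of all tested genes from 0.06 to -0.26 at 10 °C and from 0.17 to -0.09 at 25 °C. Relative to that median, the differences at 10 °C were 0.56 for aprl5, 0.96 for aprl6, -0.39 for aprl4, -0.36 for aprl8 and -0.62 for aprl7. At 25 °C they were 0.48 for aprl5, 1.02 for aprl6, -0.71 for aprl4, -0.51 for aprl8 and -0.62 for aprl7. TMM factors rescale all genes of a library alike, so these 10 values could hardly move with them. They moved by at most 0.0085, which is no check of the differences. Under quantile normalization aprl4 at 10 °C reached 0.01 relative to the median, and the other 9 values kept their sign. Of these, aprl6 came to 0.09 at 10 °C and 0.32 at 25 °C, aprl8 to -0.07 and -0.06, and aprl4 at 25 °C to -0.22. The values of aprl7 were -0.46 at 10 °C and -0.47 at 25 °C, and aprl5 rose to 0.78 and 0.67. These quantile values are on log2(FPKM + 1), where the added 1 draws in differences of genes at low FPKM. For aprl6 the effect of the added 1 and that of the scaling cannot be told apart here.

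**Figure D2:**
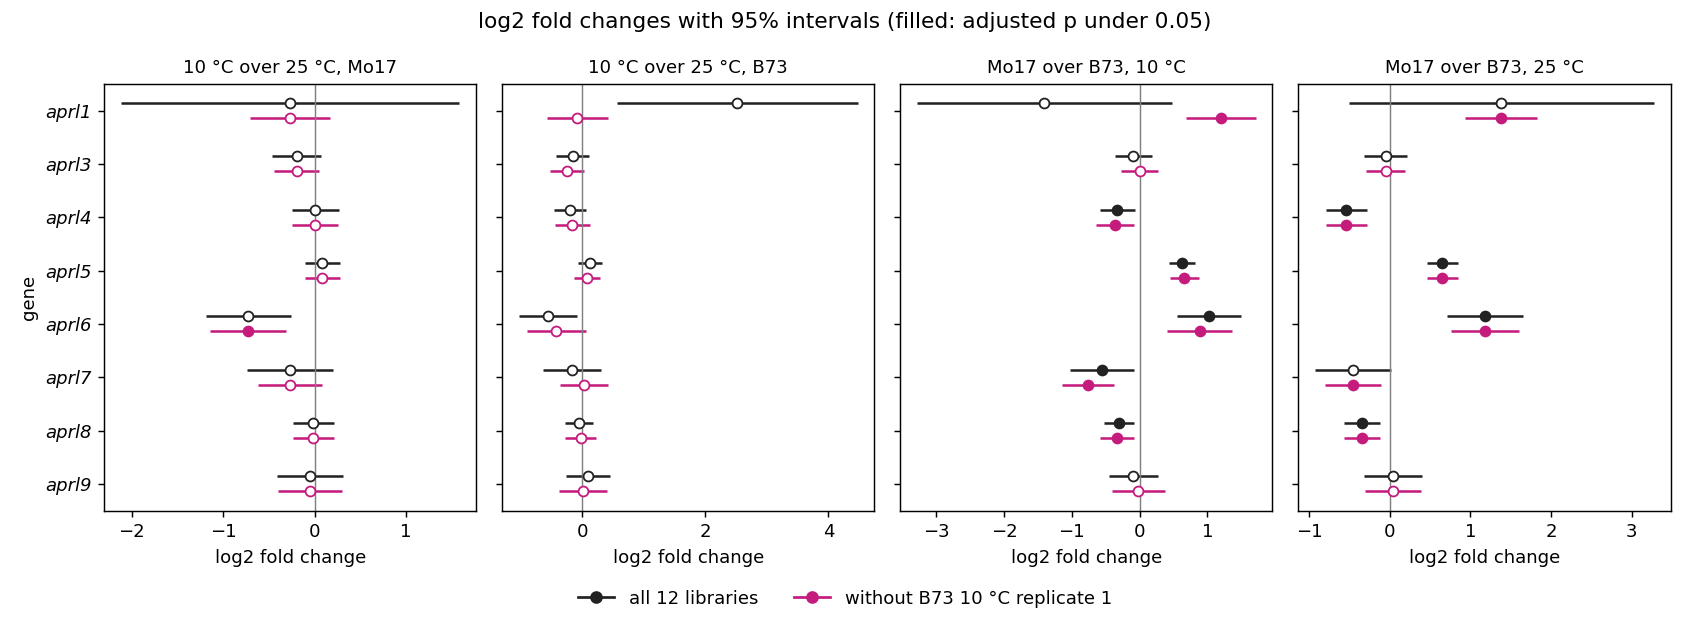
Log2 fold changes (horizontal axes) of the 8 members in the 4 comparisons of groups, with 95% intervals from the edgeR fit, for all 12 libraries (black) and without B73 10 °C replicate 1 (magenta); filled points passed the threshold. aprl1 moves from 2.52 to -0.08 in the B73 cold comparison when that library is left out, while aprl5 stays near 0.62 to 0.66 in both line comparisons.

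aprl1, the member annotated as APS reductase, depended on a single library. It had 4.99, 3.78 and 3.69 FPKM in Mo17 at 10 °C, against 29.35, 1.62 and 2.00 in B73 at 10 °C. At 25 °C it had 5.54, 5.03 and 4.42 FPKM in Mo17, against 1.46, 2.05 and 2.22 in B73. B73 10 °C replicate 1 was the only B73 library above the Mo17 libraries, and the other 5 B73 libraries all lay below all 6 Mo17 libraries. Group means were 4.15 ± 0.73 FPKM in Mo17 at 10 °C and 5.00 ± 0.56 in Mo17 at 25 °C, and 11.0 ± 15.9 in B73 at 10 °C and 1.91 ± 0.40 in B73 at 25 °C (mean ± SD, n = 3 each). Without replicate 1 the mean in B73 at 10 °C was 1.81 ± 0.27 (SD, n = 2).

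The comparisons of aprl1 changed accordingly. With all libraries its log2 difference between Mo17 and B73 was -1.40 ± 0.85 (SE) at 10 °C and 1.38 ± 0.86 at 25 °C, and neither passed (edgeR adjusted p = 0.18 for each). Without B73 10 °C replicate 1 the difference was 1.20 ± 0.23 at 10 °C and 1.38 ± 0.20 at 25 °C, and both passed (edgeR adjusted p = 0.00085 and 0.00011). That library holds the most extreme value of aprl1 itself. These adjusted p-values are therefore conditional on leaving that value out, and are not independent evidence of a line difference. The 25 °C comparison holds no library from 10 °C, and its estimate was the same in both fits. Its standard error differed because 1 estimate of the spread per gene serves all 4 groups. Without B73 10 °C replicate 2 the difference at 10 °C passed in the opposite direction, at -1.91 (edgeR adjusted p = 0.0497).

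**Figure D3:**
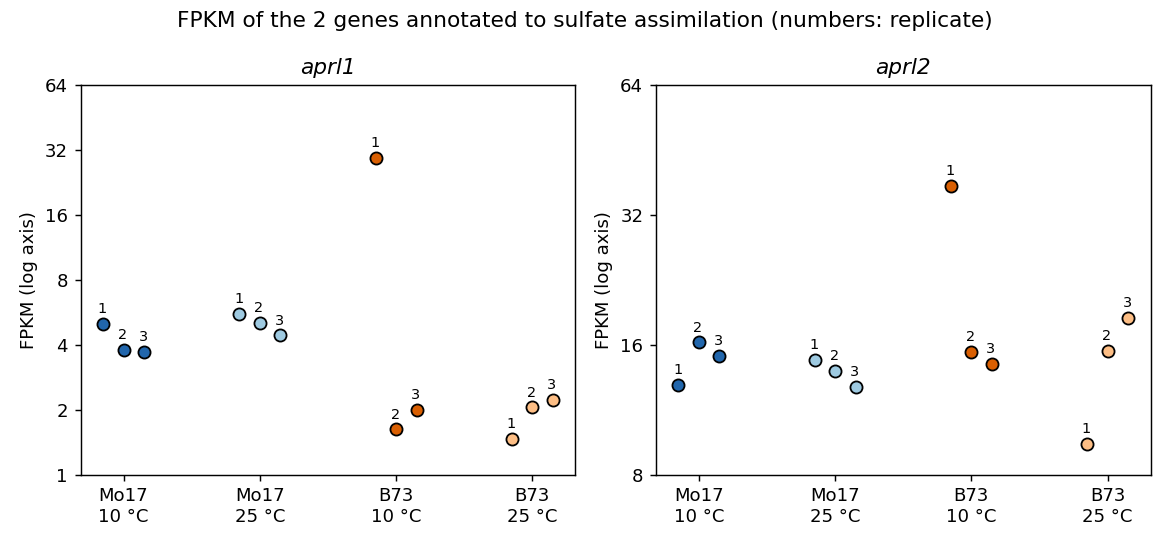
FPKM (log axes) of aprl1 and aprl2, the genes of the table annotated to sulfate assimilation, in the 12 libraries by line and temperature, with the replicate number at each point. In both genes B73 10 °C replicate 1 is the highest library, at 29.35 FPKM for aprl1 and 37.39 FPKM for aprl2.

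In the same library other genes were displaced as well. aprl1 stood 16.2-fold above the mean of replicates 2 and 3, in normalized counts (counts divided by relative depth), the largest such rise among the 76 genes. aprl2 stood 2.50-fold above, the fourth largest, and ARF11, an auxin response factor, stood 5.20-fold above. aprl7 was at 0.61 times the mean of its replicates, the fifth lowest, and aprl6 at 0.73 times. The other 5 members lay between 0.92 and 1.20 times. The median log2 deviation of that library over the 76 genes was -0.01. In FPKM, aprl2 had 12.91, 16.20 and 15.07 in Mo17 at 10 °C, against 37.39, 15.41 and 14.47 in B73 at 10 °C, and 14.76, 13.94 and 12.79 in Mo17 at 25 °C, against 9.44, 15.51 and 18.46 in B73 at 25 °C. Apart from B73 10 °C replicate 1, aprl2 thus overlapped between all groups. The cause of the values in this library was not tested.

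**Figure D4:**
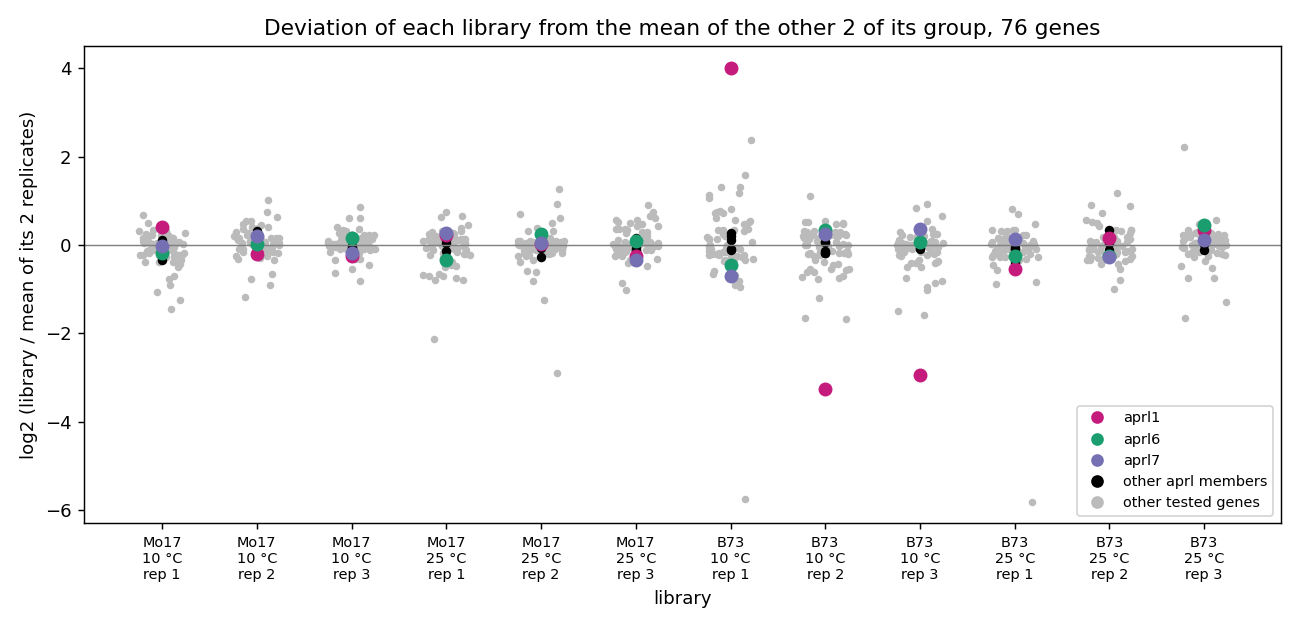
Log2 ratio (vertical axis) of each library to the mean of the other 2 libraries of its group, for the 76 tested genes, with aprl1, aprl6, aprl7 and the other members marked. aprl1 lies at 4.02 in B73 10 °C replicate 1, so its replicates lie at -3.27 and -2.95, and the members stay within 2-fold in the 9 libraries of the other groups.

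The second question was how the genes responded to 10 °C in each line. aprl6 had lower values at 10 °C in both lines and was the member that passed the test when the lines were averaged. In Mo17 it had 2.17, 2.37 and 2.53 FPKM at 10 °C, against 3.31, 4.34 and 4.04 at 25 °C. In B73 it had 0.93, 1.35 and 1.20 FPKM at 10 °C, against 1.51, 1.52 and 2.09 at 25 °C. The temperatures did not overlap in either line, and with the line difference the 4 groups were fully separated, in the order Mo17 25 °C, Mo17 10 °C, B73 25 °C and B73 10 °C from high to low. The log2 change was -0.72 ± 0.21 (SE) in Mo17 and -0.56 ± 0.21 in B73, and neither passed on its own (edgeR adjusted p = 0.083 and 0.23). Averaged over both lines it fell by 0.64 on the log2 scale, with a standard error of 0.15 (adjusted p = 0.015), a 1.56-fold decrease.

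aprl6 was the 1 member of 8 past the threshold in that average, where 10.5% of all tested genes passed. Without B73 10 °C replicate 1 the log2 change in B73 was -0.43 ± 0.22 (SE; edgeR adjusted p = 0.41). In that fit the averaged log2 change was -0.58 ± 0.14 (SE; edgeR adjusted p = 0.023) and the change in Mo17 alone also passed, at -0.72 ± 0.19 (adjusted p = 0.044), as it did with limma on log2(FPKM + 1) (-0.54, adjusted p = 0.045). The averaged call was kept in each fit without a library and lost with quantile normalization (-0.35, adjusted p = 0.14).

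In single lines 0 of the 8 members passed, by edgeR or DESeq2, in B73 (background 1.32%) and in Mo17 (background 2.63%), and limma on log2(FPKM + 1) called aprl6 in Mo17. At an unadjusted p under 0.05 there were 2 members in B73, aprl1 and aprl6, where 10.5% of all tested genes lay below it, and aprl6 in Mo17, where 22.4% did. Values of the 2 temperatures did not overlap for aprl4 and aprl6 in B73 (background 13.2%) and for aprl6 in Mo17 (background 27.6%). The median log2 change of the members was -0.12 in Mo17 and -0.11 in B73, beside -0.02 and -0.05 over all tested genes, and 6 members had a negative sign in Mo17 and 5 in B73, against 56.6% and 60.5% of all tested genes.

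For most other members the 95% interval of the change at 10 °C was narrow. aprl5 had intervals of -0.11 to 0.28 in Mo17 and -0.08 to 0.31 in B73 on the log2 scale. Those of aprl8 were -0.24 to 0.21 in Mo17 and -0.28 to 0.17 in B73, and those of aprl9 were -0.41 to 0.31 and -0.28 to 0.45. For aprl3 they were -0.47 to 0.07 in Mo17 and -0.43 to 0.11 in B73. aprl4 had -0.25 to 0.26 in Mo17 and -0.46 to 0.05 in B73, and its 3 B73 libraries at 10 °C lay below the 3 at 25 °C. The intervals of aprl7 were wider, at -0.74 to 0.20 in Mo17 and -0.64 to 0.30 in B73. Its log2 change in B73 was -0.17 with all libraries and 0.03 without B73 10 °C replicate 1, where the interval was -0.36 to 0.42. Each of these single-line intervals lay within a 2-fold change in either direction, and smaller changes cannot be told from 0 in them. Averaged over both lines, the interval of aprl3 was -0.37 to 0.01 with all libraries. Without B73 10 °C replicate 1 it was -0.41 to -0.04, and aprl3 did not pass (edgeR adjusted p = 0.13).

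For aprl1 the change at 10 °C in B73 was 2.52 ± 0.89 (SE) on the log2 scale with all libraries and -0.08 ± 0.23 without B73 10 °C replicate 1 (edgeR adjusted p = 0.20 and 0.98). In Mo17 it was -0.27 ± 0.84 and, without that B73 library, -0.27 ± 0.20 (adjusted p = 0.96 and 0.44). The Mo17 libraries of the 2 temperatures overlapped, at 3.69 to 4.99 FPKM at 10 °C and 4.42 to 5.54 FPKM at 25 °C.

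The change at 10 °C in Mo17 minus that in B73 gave the interaction of line and temperature. No member passed, by edgeR, DESeq2 or limma, and 0% of all tested genes did in the edgeR test. The smallest adjusted p among the members was 0.63, that of aprl1 (edgeR), the 1 member with an unadjusted p under 0.05, where 7.89% of all tested genes lay below it. Its interaction was -2.78 ± 1.21 (SE) on the log2 scale, and -0.18 ± 0.30 without B73 10 °C replicate 1. For aprl6 the interaction was -0.16 ± 0.30, with a 95% interval of -0.82 to 0.49, and -0.30 ± 0.28 without that library, with an interval of -0.93 to 0.33.

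Within the family, the order of the groups followed the line in several members. Mean FPKM of aprl5 ran from Mo17 10 °C through Mo17 25 °C and B73 10 °C to B73 25 °C, from high to low, and neighbours of the same line overlapped. For aprl8 the order was B73 25 °C, B73 10 °C, Mo17 25 °C and Mo17 10 °C, with overlap within each line and none between the lines. aprl4 ran from B73 25 °C through B73 10 °C and Mo17 10 °C to Mo17 25 °C, and its overlap was between the Mo17 groups. In aprl3, aprl7 and aprl9 every neighbouring pair of groups overlapped.

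Profiles were compared as centred log2(FPKM + 1) over the 12 libraries, by the root mean square distance, as a description. The member closest to aprl4 was aprl8 and the reverse, at a distance of 0.15. aprl8 was itself only 0.18 from a flat line, and aprl4 was 0.25 from it. Among genes outside the family, the nearest to aprl5 was AGPLS3, a large subunit of ADP-glucose pyrophosphorylase, the enzyme that makes the glucose donor of starch synthesis, at 0.11, where the median gene was at 0.44. The nearest to aprl8 was AI676903, an uncharacterized protein, at 0.10, and the nearest to aprl4 was Agpsemzm, the small subunit of ADP-glucose pyrophosphorylase, at 0.15. The nearest to aprl6 was AN110, annotated as a zinc finger protein, at 0.17, to aprl7 als1, an acetolactate synthase of branched-chain amino acid synthesis, at 0.18, to aprl3 AMADH2 at 0.14, and to aprl9 ARF16, an auxin response factor, at 0.12. The profiles of aprl3 and aprl9 were themselves only 0.16 and 0.12 from a flat line, so their nearest genes were about as far away as no variation at all. For aprl1 the nearest were ARF11 at 0.61 and aprl2 at 0.67, where the median gene was at 0.99. Without B73 10 °C replicate 1 the nearest to aprl1 was ANT1, a mitochondrial ADP/ATP carrier, at 0.18, and aprl2 came at place 34, at 0.53. Without that library the nearest to aprl6 was amyb5, a beta-amylase, at 0.14, and to aprl7 act2, an actin, at 0.13.

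Other genes of sulfur assimilation or of redox and protein folding were few in the table, where the symbols of all 76 tested genes begin with a. The sulfur list held aprl2 alone, and a search of the annotation for redox and folding terms found 5 genes, of which ANAC030 and ap1 failed the filter and 3 were tested. These were aprl2, apx2, an ascorbate peroxidase that removes hydrogen peroxide, and adss1, whose annotation is mixed: it was found by glutathione terms, but its pathway entries are purine and amino acid metabolism. None of the 3 passed in any of the 6 contrasts. aprl2 had a log2 difference of -0.61 ± 0.35 (SE) between Mo17 and B73 at 10 °C and -0.07 ± 0.35 at 25 °C, and without B73 10 °C replicate 1 the first was -0.02 ± 0.23. apx2 had 0.07 ± 0.09 at 10 °C and 0.01 ± 0.09 at 25 °C. Of the embryo and endosperm markers looked for, storage zeins, oleosins and late embryogenesis abundant proteins, none was found in this table of 99 genes. The tissue label was therefore not checked, and these absences say nothing about the embryos.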

How the data were processed

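12 libraries of poly(A)-selected RNA made with dUTP strand marking were read in pairs, per the labels' protocols. Per the submitters' processing notes the tools, with no stated role, were StringTie 1.3.4d, HISAT2 2.0.4, cutadapt 1.9, DESeq2 and edgeR, and the build was B73 RefGen_v4 for both lines. Use of the strand in counting is not stated in the labels. The authors deposited a count and an FPKM per gene and library, per the file headers, and 99 genes were analysed here. The smallest count above 0 is 3, so the deposited counts may derive from coverage, and no counting intervals are given. How the authors' counting treated reads shared by similar genes is not stated in the labels.

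The members and gene lists were chosen with earlier results of these data known. Dividing count by FPKM in the 48 genes whose FPKM reached 5 in every library gave each library's relative depth, to within 0.373%. The deposited counts were tested with edgeR 4.0.16 (R 4.3.3) at library sizes proportional to that depth, as 1 quasi-likelihood model of 4 group means, 2-sided, over the 76 genes that passed the filter. Standard errors are the log2 change (fitted with no prior count) over the square root of F. p-values rest on the spread among the 3 biological replicates of each group. That spread is pooled over the 4 groups for each gene and drawn toward that of the other genes. The procedure was tested on simulated data. Alternatives were TMM factors, DESeq2 1.42.0, limma 3.58.1 on log2(FPKM + 1) and log2(FPKM + 0.1), no filter, a replicate block and each library left out in turn, and, chosen after seeing the data, median-ratio factors and quantile normalization. All 8 members were to be named, with the 2 nearest profiles of each and up to 3 genes of each list, and amyb5, act2 and ANT1 were also named after their values were seen. Chromosome numbers came from transcripts matched for all 8 members in RefSeq's gene table of the NAM assembly.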

Additional observations from a re-analysis of the deposited data

How the results depend on the processing

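Of the 8 members, the count called between the lines at 25 °C was 3 to 6 over all alternatives, against 4 in the fit reported. At 10 °C it was 2 to 6 without a library, 2 with quantile normalization and 7 with TMM factors, which added aprl3 and aprl9, against 5. At 10 °C against 25 °C in Mo17 the count was 1 with limma on log2(FPKM + 1) and 0 to 1 without a library, against 0, and for the average of both lines it was 0 with quantile normalization, against 1. In B73 alone and for the interaction it was 0 under every alternative. Deviations of same-numbered libraries within a line correlated at -0.435 to 0.444, and 1 of the 6 pairs exceeded 0.1. Differently numbered libraries spanned -0.492 to 0.473. No pairing by replicate number was thus seen, but whether the numbers mark a shared batch cannot be told from so few pairs. With replicate number as a block, the line difference of aprl7 at 10 °C was -0.55 and lost its call, and no other call of a member changed.

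No called result changed sign under any alternative, and 20 uncalled ones did. With quantile normalization the line difference was 0.18 at 25 °C and 0.22 at 10 °C for aprl3 and -0.63 at 25 °C for aprl9, and the interaction was 0.032 for aprl3, 0.14 for aprl5, 0.046 for aprl7 and 0.10 for aprl9. For aprl9 at 25 °C the line difference was -0.22 with TMM factors and -0.090 with DESeq2 and with median-ratio factors. The change of aprl8 at 10 °C in B73 was 0.0077 with TMM factors, 0.019 with DESeq2 and median-ratio factors and 0.043 with quantile normalization. In Mo17 it was 0.061, 0.061 and 0.062 with the last 3, and over both lines 0.040, 0.040 and 0.052. For aprl9 in Mo17 these gave 0.025, 0.025 and 0.13, and TMM factors gave an aprl8 interaction of -0.016. Without a library, the change at 10 °C in B73 ran from -0.083 to 3.03 for aprl1, -0.31 to 0.030 for aprl7, -0.16 to 0.0046 for aprl8 and -0.036 to 0.21 for aprl9. In Mo17 it ran from -0.10 to 0.10 for aprl4, -0.059 to 0.030 for aprl8 and -0.14 to 0.053 for aprl9, and averaged from -0.17 to 1.38 for aprl1 and -0.043 to 0.080 for aprl9. The line difference at 25 °C ran from -0.12 to 0.032 for aprl3 and -0.079 to 0.17 for aprl9, and at 10 °C from -1.91 to 1.20 for aprl1, -0.18 to 0.0048 for aprl3 and -0.16 to 0.010 for aprl9. The interaction ran from -0.13 to 0.057 for aprl3, -0.091 to 0.018 for aprl5, -0.30 to 0.034 for aprl7 and -0.019 to 0.15 for aprl8. The cause of the sign changes was not tested. Absolute depth is unknown, and the table's 76 tested genes limit every scaling that assumes most genes alike.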
